A study of Mus musculus with 2 samples.

Results

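Mir22 (ENSMUSG00000065529.1) is a single microRNA gene, 1 of the 2202 microRNA genes counted in each library of this study of whole mouse heart. It was chosen by its measured values, namely its level, its rank, its strand balance and its change between the libraries. Those values are therefore given as a description with no test. The study holds 2 small RNA libraries from heart tissue of male B6CASTF1/J mice, an F1 cross of the strains C57BL/6J and CAST/EiJ, at an age of 2 months. The labels give no altered gene and no treatment, and the libraries are replicates 1 and 2 of a single group. The tissue descriptions number different males but carry the same donor identifier. The libraries were taken here as from separate animals, which the labels do not settle. Differences between animals and differences between library preparations cannot be told apart.

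MicroRNAs are short RNAs cut from a folded hairpin that guide Argonaute proteins to messenger RNAs. Pairing is led by the seed, bases 2 to 8 of the mature strand, and lowers the stability or translation of the target. In heart muscle miR-22 is known as an abundant microRNA that promotes growth of cardiomyocytes, and mice without it are known for a weak hypertrophic response and a poor tolerance of pressure overload. Targets described for it include the deacetylase genes Sirt1 and Hdac4.

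The Mir22 hairpin is shown first because a count in these files is for the whole hairpin and both mature arms add to it. The mouse assembly is mm10 (GRCm38.p6 in the RefSeq table the sequences come from), and the hairpin of 95 bases lies at chr11:75463716-75463810 on the plus strand. In the hairpin the capitals mark the mature arms, and in each arm they mark the seed.
Mir22 hairpin: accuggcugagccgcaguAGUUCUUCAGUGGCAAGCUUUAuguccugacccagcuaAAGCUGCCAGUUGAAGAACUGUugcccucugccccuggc
mmu-miR-22-5p: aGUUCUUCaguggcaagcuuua
mmu-miR-22-3p: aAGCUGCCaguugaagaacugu
The 5p arm spans bases 19 to 40 of the hairpin and the 3p arm bases 57 to 78, with 16 bases between them. In the minimum free energy fold of the hairpin, at -41.9 kcal/mol, 19 bases of the 5p arm paired with the 3p arm, and all 7 seed bases of each arm were paired. The counts do not say which arm the reads came from.

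Neither seed was shared with another mouse microRNA among the 1738 mature sequences of the RefSeq table. For the seed of the 5p arm, 2 other microRNAs matched over the shorter stretch of its first 6 bases. The last 6 bases of a seed were not searched. They are shown because they are the nearest seed relatives found, with those first 6 bases in capitals. This shorter match was looked for after the values were seen.
mmu-miR-6935-3p: uGUUCUUugucuuuccacag
mmu-miR-7092-3p: uGUUCUUuguuuuguuugccuuag
Mir6935 had 1 count in replicate 1 and 0 in replicate 2, and Mir7092 had 0 in both. No other mature sequence matched the first 6 bases of the 3p seed. The table matched 968 of the 2202 counted genes by symbol, so the seeds of the others were not compared.

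Shared stretches were searched in the annotated hairpins of all 2202 counted genes. The longest stretch its hairpin had in common with the hairpin of another microRNA gene in the files, on either strand, was 13 bases, shared with Mir6998. For the 5p arm it was 10 of 22 bases and for the 3p arm 11 of 22. Reads that map to several places have a row of their own in these files, and stretches outside microRNA hairpins were not searched.

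The hairpin overlaps 3 annotated genes, counting Mir22 itself, and all 3 are on the plus strand. It lies wholly within exon 2 of Mir22hg, its non-coding host gene (chr11:75461539-75466676), in both annotated transcripts. It also lies in exon 2 of Tlcd2-203, a transcript of the protein-coding gene Tlcd2 (chr11:75461715-75470899) that is annotated as non-coding. The coding transcripts Tlcd2-201 and Tlcd2-202 begin downstream of the hairpin. Neither host gene is counted in the files, so its level was not analysed here.

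**Figure D1:**
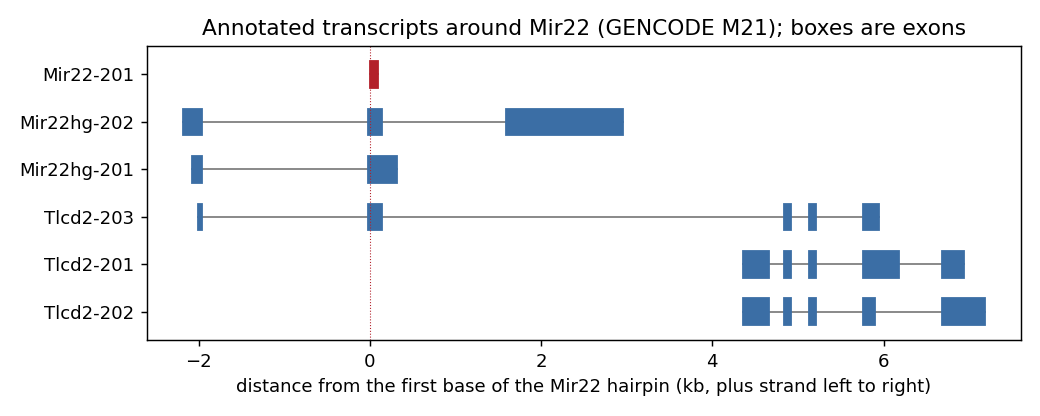
Transcripts of Mir22, Mir22hg and Tlcd2 (without a retained-intron transcript of Tlcd2) annotated around Mir22 in GENCODE M21, with exons as boxes and introns as lines, against the distance in kb from the first base of the hairpin. The hairpin (red) sits in exon 2 of both Mir22hg transcripts and of Tlcd2-203, and the coding transcripts Tlcd2-201 and Tlcd2-202 start to its right.

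Mir22 was among the most counted genes of the heart libraries, and it was much higher in one library than in the other. Replicate 1 held 50327 reads on the strand of the gene and replicate 2 held 172688. All microRNA genes together held 3650782 and 3810675 such reads. As CPM, the count per 1000000 of these reads, Mir22 stood at 13785 CPM in replicate 1 and at 45317 CPM in replicate 2. Replicate 2 was thus the high library, and the values of the 2 replicates lie far apart. The mean was 29551 CPM ± 22296 (SD, n = 2), so the SD was 75.4% of the mean. The libraries were made, per the labels, from RNA of mature microRNA size, so a read covers an arm whole and CPM were not divided by hairpin length.

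As a share of all microRNA gene counts, Mir22 made up 1.38% in replicate 1 (95% interval 1.37 to 1.39) and 4.53% in replicate 2 (4.51 to 4.55), with exact binomial intervals by the Clopper-Pearson method. Reads were not collapsed to molecules, so these intervals cover counting error only. Of uniquely mapped reads Mir22 held 1.20% and 4.05%, and of all reads of the library 0.486% and 1.65%. Whichever total was used, the share was low in replicate 1 and high in replicate 2.

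Every read counted at Mir22 lay on the strand of the gene. The opposite strand had 0 reads in replicate 1 and 0 in replicate 2. A count of 0 allows an opposite-strand share of up to 0.00596% in replicate 1 and 0.00174% in replicate 2, taking 3 counts as the limit. The count made without regard to strand was the same as that on the gene strand, 50327 and 172688. This balance was common, since 229 of the 257 genes at a mean of 10 CPM or more (89.1%) had no read on the opposite strand in either library. Of these 257 genes, 21 had no count at all in the column without strand.

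By CPM, Mir22 ranked 13 of 2202 genes in replicate 1 and 10 in replicate 2, and 11 by its mean. The 12 genes above it in replicate 1 held 73.6% of the counts, and the 9 genes above it in replicate 2 held 61.7%. The 3 genes next above it by mean were Mir143, known from smooth muscle, at 49706 CPM ± 884, Mirlet7d of the let-7 family at 41777 CPM ± 18205, and Mir139 at 39880 CPM ± 1714. The 3 next below were Mir26b at 28348 CPM ± 10514, Mir99a at 26642 CPM ± 1617 and Mir149 at 19956 CPM ± 13491 (SD, n = 2 each).

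Of the neighbours just named, only Mir143 lay apart from Mir22 in both libraries. The span between its 2 libraries overlapped the span of 7 other genes, namely Mirlet7d, Mir139, Mir26b, Mir99a, Mir149, Mir29a and Mir125a. In 8 genes both libraries were above both Mir22 values, and the lowest of these by mean was Mir143, at 49081 and 50331 CPM. In the remaining 2186 genes both libraries were below 13785 CPM. By counted reads, the values of Mir22 thus lay apart from those of these 8 and 2186 genes but not from those of the 7. With 2 libraries this describes these libraries only. Reads that mapped to several places, 48.0% and 46.4% of all reads, are in no gene count. Genes that share sequence with other genes may therefore rank too low here.

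**Figure D2:**
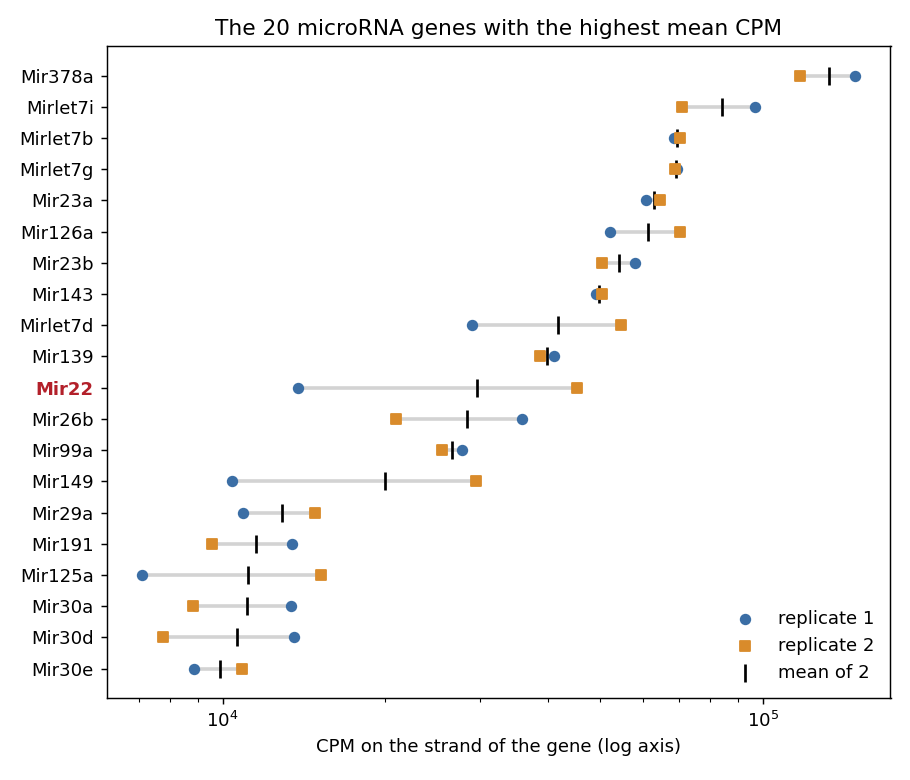
CPM of the 20 microRNA genes with the highest mean, on a log axis, with replicate 1 as circles, replicate 2 as squares and the mean as a tick. Mir22 runs from 13785 to 45317 CPM, a span that takes in the means of Mirlet7d and Mir139 above it and of Mir26b, Mir99a and Mir149 below it, but not that of Mir143.

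The change of Mir22 between the libraries was 3.29-fold, higher in replicate 2, or 1.72 on the log2 scale of CPM + 0.5. Counting error alone gives a 95% interval of 3.25 to 3.32 for this fold, which does not include the spread between samples. Of the 257 genes at a mean of 10 CPM or more, 30 (11.7%) were more than 2-fold higher in replicate 2, 25 (9.73%) were more than 2-fold lower, and the 2 directions together came to 21.4%. The median log2 ratio of these genes was 0.02, and the median of its absolute value was 0.45. Mir22 had the eighth largest rise among them and stood at position 13 by absolute log2 ratio. Because this contrast helped to choose Mir22, nothing is read from its place among the other genes.

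The same counts were made at higher levels, also as a description. Of 65 genes at a mean of 1000 CPM or more, 7 were more than 2-fold higher and 4 more than 2-fold lower in replicate 2, and Mir22 stood at position 3 by log2 ratio. Of 19 genes at 10000 CPM or more, 3 were more than 2-fold higher and 0 more than 2-fold lower, and Mir22 stood first. These 3 were Mir22, Mir149 and Mir125a.

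In absolute terms Mir22 gained 31532 CPM from replicate 1 to replicate 2, the largest gain of any gene and 23.2% of all gains summed over 349 genes. The next gains were those of Mirlet7d at 25746 CPM, Mir149 at 19079 CPM and Mir126a, an endothelial microRNA, at 18015 CPM. The largest losses were those of Mir378a, whose CPM dropped by 30777, and of Mirlet7i, whose CPM dropped by 25856. CPM sum to a fixed total, so gains and losses balance by construction. Leaving Mir22 out of the total raised the log2 ratio of other genes by 0.05, for genes with CPM well above the added 0.5.

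Ratios of counts within a library do not depend on the library total. Mir22 had 0.0931 times the counts of Mir378a in replicate 1 and 0.387 times in replicate 2. Against Mir143 it had 0.281 and 0.900 times, and against Mir126a 0.264 and 0.645 times. Against Mir139 the ratio was 0.335 in replicate 1 and 1.17 in replicate 2, and against Mir26b it was 0.385 and 2.17, so the order of Mir22 against both genes turned between the libraries.

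**Figure D3:**
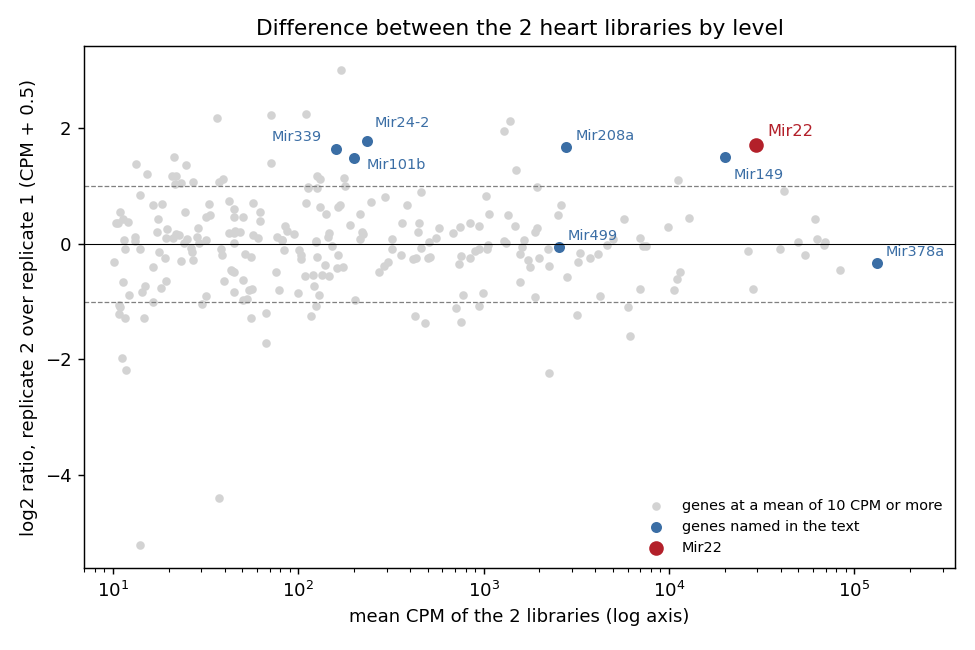
Log2 ratio of replicate 2 over replicate 1 (CPM + 0.5) against the mean CPM on a log axis, for the 257 genes at a mean of 10 CPM or more. Dashed lines mark 2-fold, and Mir22 (red) stands at 1.72, beside Mir149 and far above Mir378a and Mir499.

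The genes whose pattern was most like that of Mir22 were found by the distance between log2 ratios over the 2 libraries, among 145 other genes at a mean of 100 CPM or more. With 2 libraries, likeness means only a similar ratio. The nearest was Mir208a, a heart muscle microRNA hosted by the myosin gene Myh6, with 4851 counts against 16254. Its CPM were 1329 in replicate 1 and 4265 in replicate 2, and its log2 ratio was 1.68. Mir22 had 10.4 times the counts of Mir208a in replicate 1 and 10.6 times in replicate 2, a closeness that follows from how Mir208a was picked.

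The other 4 were Mir24-2, Mir339, Mir149 and Mir101b, with log2 ratios of 1.77, 1.65, 1.50 and 1.49. Mir149, which lies in an intron of Gpc1, had 38026 and 112397 counts and is the one of them at a level near that of Mir22. Mir24-2 had 388 and 1389 counts, Mir339 283 and 930, and Mir101b 381 and 1118. Mir24-2 shared 28 bases on the same strand with Mir24-1, and Mir101b shared 20 with Mir101a. A read wholly within such a stretch maps to both genes of a pair. It would fall in the row for several places and be missing from these counts.

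The microRNA genes nearest to Mir22 on chromosome 11 were described by the same counts. Mir132, known for promoting cardiomyocyte growth, lies 289968 bases upstream, and its counts were 1714 and 1502, with a log2 ratio of -0.25. Its cluster partner Mir212, which is named although it is one place beyond the nearest genes, had 68 and 76 counts, a log2 ratio of 0.10. Gm47300 and Mir3971, the nearest on each side at 145107 and 87618 bases, had 0 counts in both libraries and so no measured ratio. Mir423, at 1614253 bases downstream, had 4823 and 6244 counts, a log2 ratio of 0.31. The 3 of these genes with counts were within 2-fold between the libraries, as most compared genes were (21.4% were past it).

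Mir22 belongs to a set of microRNAs linked to growth of the heart, which were listed from general knowledge in 2 groups without Mir22. The lists were written with earlier results of these data known, so their shares are a description and not independent of the data. The group known to be raised in hypertrophy or to promote growth had 20 genes, of which 18 reached a mean of 10 CPM. Of these 18, 5 (27.8%) were more than 2-fold higher in replicate 2 and 1 (5.56%) more than 2-fold lower, beside the 11.7% and 9.73% of all compared genes. Their median log2 ratio was 0.15, against 0.02 over all compared genes. In 3 members, Mir24-2, Mir208b and Mir214, the log2 ratio was above the 1.72 of Mir22, and in 15 it was below.

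Of the 3 most counted members of that group, Mir23a and Mir23b hardly differed between the libraries. Mir23a, which targets an anti-hypertrophic ubiquitin ligase, was at 60908 CPM in the first library and 64634 CPM in the second. Its paralog Mir23b was at 57970 and 50476 CPM, and Mir27b of the same cluster at 4874 and 6568 CPM. The log2 ratio of Mir27b was 0.43, near the median absolute log2 ratio of 0.45 over all compared genes. None of the 3 was past 2-fold in either direction.

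The 5 members more than 2-fold higher were Mir24-2, Mir208a, Mir208b, Mir214 and Mir222. Mir208b, the partner of Mir208a in an intron of Myh7, had 90 and 448 counts, a log2 ratio of 2.23. Mir214, known from stressed heart and from fibroblasts, had 1896 and 8647 counts, a log2 ratio of 2.13. Mir222 was at 1.00, only just past the line, and Mir27a at 0.99 fell just short of it. The member more than 2-fold lower was Mir21a, a microRNA of cardiac fibroblasts under stress, whose counts were 16444 and 7270 and whose log2 ratio was -1.24. Replicate 2 was therefore high for these 5 members, as for Mir22, and low for Mir21a. Summed over all 20 genes, the group was at 142019 CPM in replicate 1 and 143097 CPM in replicate 2. Most of each sum was Mir23a (60908 and 64634 CPM) and Mir23b (57970 and 50476 CPM).

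The group known to fall in hypertrophy or to restrain growth had 29 genes, and 22 reached a mean of 10 CPM. Of these, 2 (9.09%) were more than 2-fold higher and 2 (9.09%) more than 2-fold lower in replicate 2, shares near those of all compared genes. Their median log2 ratio was -0.10. Its most counted members were Mir378a, known to restrain cardiomyocyte growth, at 148027 and 117249 CPM in the replicates in turn, Mir26b, at 35782 and 20913 CPM, and Mir29a, an antifibrotic microRNA, at 10919 and 14824 CPM.

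The members more than 2-fold higher were Mir101a, with 139 and 697 counts, and Mir101b. Those lower were Mir26a-1, with 261 and 11 counts, and Mir9-3, with 101 counts and 1 count. Both passed the level of 10 CPM through replicate 1 alone, where they were high. Each of these 4 has a stretch of 20 or more bases that also stands, on either strand, in the hairpin of another microRNA gene. Overlapping genes on opposite strands were included in this search. When the 19 members of this group with such a stretch were left out, a choice made after the data were seen, 9 compared members stayed and 0 of them were past 2-fold. In the growth-promoting group 9 members have such a stretch, and without them 4 of 11 compared members were more than 2-fold higher and 1 more than 2-fold lower. Of all genes without such a stretch, 177 were compared, and 24 (13.6%) were more than 2-fold higher and 14 (7.91%) more than 2-fold lower.

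**Figure D4:**
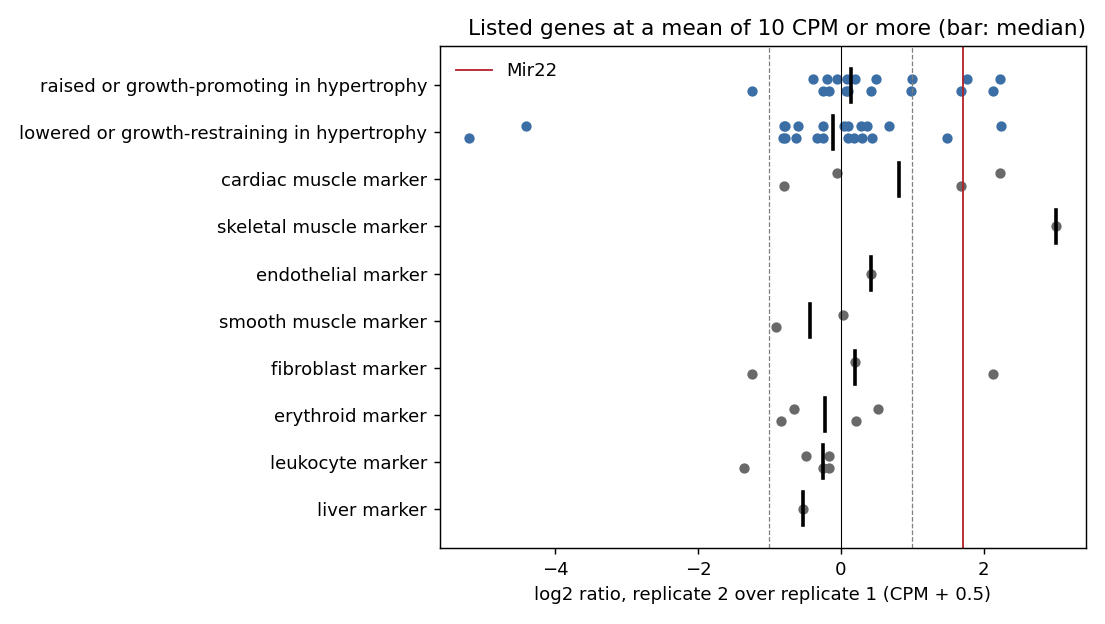
Log2 ratio of replicate 2 over replicate 1 for listed genes at a mean of 10 CPM or more, by list, with the median as a bar and 2-fold as dashed lines. The red line is Mir22 at 1.72; the medians of the hypertrophy lists are 0.15 and -0.10, and the 4 cardiac muscle markers spread from -0.80 to 2.23.

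Some markers of heart muscle, Mir208a and Mir208b, and the skeletal muscle marker Mir206 were also higher in replicate 2. Other markers of both lists were not, and their part in the Mir22 difference was not tested. In bulk tissue, fewer cells of a type and less RNA per cell cannot be told apart. The 7 cardiac muscle genes summed to 4032 CPM in the first replicate against 6942 CPM in the second, with all 7 counted in at least 1 library. Without Mir208a the other 6 summed to 2703 and 2677 CPM, so the rise of the sum was that of Mir208a. Reads that mapped to several places, 48.0% and 46.4% of all reads, are not in these sums. Genes of more than 1 copy, such as Mir1a and Mir133a, may thus be undercounted. All 7 genes also stand in the hypertrophy groups, so the lists are not independent of each other. Mir208a was higher in replicate 2, as Mir22 was, while Mir499, in an intron of Myh7b, was at 2601 and 2507 CPM, so that Mir22 had 5.30 times its counts in replicate 1 and 18.1 times in replicate 2. Mir1a-2 had 251 and 150 counts, a log2 ratio of -0.80. The skeletal muscle pair summed to 43.0 and 308 CPM, nearly all from Mir206 in replicate 2, with 135 and 1154 counts, while Mir133b had 22 and 20.

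Sums over the lists of other cell types were as follows. The endothelial pair was at 52212 and 70229 CPM, the smooth muscle pair at 54611 and 53284 CPM, and the 5 fibroblast genes at 5045 and 4197 CPM in replicates 1 and 2. Members moved apart within a list: Mir143 had a log2 ratio of 0.04 and Mir145a of -0.90 among the smooth muscle genes, and Mir214 of 2.13 and Mir21a of -1.24 among the fibroblast genes. The 4 erythroid genes summed to 3279 and 2992 CPM, the 5 leukocyte genes to 10633 and 8667 CPM (Mir142 among them with a log2 ratio of -1.35), and the liver gene Mir122 was at 142 and 97.9 CPM. Every gene of these lists had at least 1 count in at least 1 library.

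The libraries had similar depth. They held 10362589 and 10483233 reads, of which 35.2% and 36.4% lay on the strand of a microRNA gene, 48.0% and 46.4% mapped to several places, and 11.6% and 12.9% did not map. At this depth 3 counts correspond to 0.822 and 0.787 CPM, far below the level of Mir22 in either library.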

How the data were processed

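Small RNA of 2 mouse heart libraries was analysed from the deposited raw counts per microRNA gene, given without regard to strand, on the gene strand and on the opposite strand. Per the text the authors deposited with each file, the assembly is mm10, of strain C57BL/6J, and the annotation GENCODE M21. The aligner and its settings are not given in the sources used here. Totals exclude the 4 rows without a gene, which took the reads not on the strand of a microRNA gene.

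CPM were computed over gene rows on the gene strand. The log2 ratio is of CPM + 0.5 in replicate 2 over replicate 1. Genes were compared at a mean of 10 CPM or more and called past 2-fold. No test was made, since 1 group of 2 libraries gives no contrast and Mir22 was selected on these values. The log2 ratio and the 2-fold calls were tested on simulated data with 200 genes, drawn from all with a count, changed by known folds. The simulation held counting noise only and used known library totals, so it did not test the scaling.

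Sequences came from the RefSeq table for GRCm38.p6, which held 968 of the 2202 genes by symbol, and RNAfold 2.7.2 folded the hairpin. Alternatives used TMM (edgeR 4.0.16), DESeq2 1.42.0 size factors, other totals, filters, pseudocounts and strand columns. The members and lists were chosen with earlier results of these data known. Named are Mir22, the 3 genes next to it on each side by mean, the 5 nearest by log2 ratio at 100 CPM or more, the 2 nearest genes on each side, microRNAs with its seeds, the 3 most counted members of each hypertrophy list, list members past 2-fold, and markers that moved with Mir22. Other genes were named after their values were seen.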

Additional observations from a re-analysis of the deposited data

How the results depend on the processing

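Mir22 was higher in replicate 2 under all 9 other settings of its log2 ratio, from 1.69 to 1.78, or 3.23-fold to 3.44-fold. For Mir22 these settings change only the library total or the pseudocount, so they could hardly reverse the log2 ratio. The value was 1.69 without regard to strand, 1.76 over uniquely mapped reads, 1.76 over all reads, 1.76 with Mir22 out of the total, 1.78 with TMM over all genes and 1.78 with DESeq2 size factors. Without a replicate its level was 13785 to 45317 CPM and its rank 10 to 13. The number of genes past 2-fold followed the filter. It was 83 at 2 CPM or more (46 higher, 37 lower), 27 at 100 CPM or more (16 higher, 11 lower) and 119 with at least 1 count in both libraries (63 higher, 56 lower), out of 370, 146 and 539 genes compared. In the growth-promoting list, 3 genes were higher without regard to strand, and 2 were lower at 2 CPM or more. Over all genes compared, these were 27 of 253 (10.7%) and 37 of 370 (10%). The column without strand held no count for 21 of the 257 genes at 10 CPM or more. In the growth-restraining list, 0 were lower at 100 CPM or more, where 11 of all 146 (7.53%) were. Without members that share 20 bases, 0 of 9 were higher and 0 lower. Of all 177 genes so compared, 13.6% were higher and 7.91% lower. These filters change which genes are compared. No paired analysis was possible because both libraries belong to 1 group. The choices to leave Mir22 out of the total for the lists and the 2-fold counts, and to leave out members that share bases, were made after seeing the data. Depth limits genes near 10 CPM, not Mir22, whose counting interval is narrow beside the gap between its libraries.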
